A study of Mus musculus with 2 samples.

Results

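The 39 genes described here encode abundant nuclear RNA-binding proteins: the hnRNP proteins, the FET proteins Ewsr1 and Taf15, the DEAD-box helicases Ddx5 and Ddx17, and splicing and stability factors such as Tardbp, Mbnl1 and Elavl1. They were taken by gene symbol from the GENCODE M21 annotation of the mm10 mouse genome by a rule with no threshold on a measured value, and all 39 were found among 55536 annotated genes, of which 22015 are nuclear protein-coding genes. The list was nevertheless chosen with earlier results of these data known. RNA was sequenced from the chromatin fraction of mouse bone marrow-derived macrophages of strain C57BL/6J, after depletion of ribosomal RNA. The 2 libraries form 1 group, lipid A at 100 ng/ml for 0 minutes, so no comparison of conditions was possible and no test was run. The chromatin fraction is the RNA that stays with the DNA when nuclei are separated, and it is rich in transcripts still being made or spliced. Both libraries are labelled biological replicates and carry the same donor entry, so whether they came from separate animals is not known, and every SD below (n = 2) covers only the spread between these libraries.

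hnRNP proteins coat new transcripts and steer splice site choice, export and stability. FET proteins bind RNA and RNA polymerase II, and Ddx5 and Ddx17 unwind RNA during splicing and transcription. Many genes of these families are known to limit their own product by splicing part of their RNA into forms with an early stop codon, which are destroyed by nonsense-mediated decay, or into forms that keep an intron in the nucleus. The annotation marks such forms: a coding transcript, a transcript targeted to decay, a retained-intron transcript, or another non-coding transcript with none of these labels.

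The tables held 10970767 and 14207280 expected counts in replicates 1 and 2, and the RNA input was 250 ng and 500 ng. In the gene table all 10 macrophage markers were at 1 TPM or more in both replicates, and none of the 4 markers each of T cells, B cells, neutrophils, stromal cells and erythroid cells was. By the second transcript table, 3 of those 20 were: Cd3d at 8.34 and 10.8 TPM, Cd8a at 2.43 and 3.24 TPM and Col1a1 at 1.02 and 1.74 TPM. TPM is a read count scaled for transcript length and for the total of the table. Malat1, a long RNA held on chromatin, stood at 13950 and 15470 TPM.

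The sequences shown first are the borders where an annotated non-coding form of a member leaves a coding exon and goes on into the intron. They are shown because each of these forms runs past the end of a coding exon. Each line holds the last 20 exon bases in lower case and the first 40 intron bases in capitals, 5′ to 3′ on the strand of the gene, taken from the GENCODE M21 transcripts. The introns or intron parts lie at chr11:106782694-106783958 on the minus strand (Ddx5), chr7:28815353-28816960 on the plus strand (Hnrnpl), chr17:80045049-80048607 on the minus strand (Hnrnpll), chr11:5078953-5079484 on the minus strand (Ewsr1), chr11:50379965-50381458 on the plus strand (Hnrnph1), chr4:127027519-127028015 on the plus strand (Sfpq), chr13:58398726-58399155 on the minus strand (Hnrnpk) and chr6:86420412-86422119 on the plus strand (Tia1).
Ddx5-208: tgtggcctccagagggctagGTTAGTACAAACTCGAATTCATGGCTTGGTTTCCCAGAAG
Hnrnpl-206: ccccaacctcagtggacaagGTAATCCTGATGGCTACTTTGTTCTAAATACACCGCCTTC
Hnrnpll-207: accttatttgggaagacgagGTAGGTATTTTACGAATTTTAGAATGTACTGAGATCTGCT
Ewsr1-209: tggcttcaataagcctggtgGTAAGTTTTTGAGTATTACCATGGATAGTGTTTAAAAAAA
Hnrnph1-204: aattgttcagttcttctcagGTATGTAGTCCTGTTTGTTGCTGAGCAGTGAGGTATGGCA
Sfpq-204: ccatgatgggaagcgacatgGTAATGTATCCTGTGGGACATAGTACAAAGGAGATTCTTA
Hnrnpk-204: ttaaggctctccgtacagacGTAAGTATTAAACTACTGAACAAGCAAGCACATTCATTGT
Tia1-213: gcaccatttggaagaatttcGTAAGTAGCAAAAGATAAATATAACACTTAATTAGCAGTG

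Counting every border with an exon of a coding transcript, untranslated exons included, 82 of 86 intron parts of the members opened with GT, the usual donor letters, and 24 with GTAAG. The shares were 95.35% and 27.91%, beside 97.41% and 26.17% of 12796 borders over all genes with at least 100 counts. In Ddx5-208, Ewsr1-209 and Hnrnph1-204 the intron is kept whole. In the other 5 the transcript runs into the intron and ends there. Reads from a stable intron-holding RNA and from RNA not yet spliced cannot be told apart in these tables.

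The next set shows the extra exons that put a stop codon into 4 members, up to and including the stop, which is in capitals. These exons lie inside introns of the coding transcripts, at chr7:28817335-28817404 on the plus strand (Hnrnpl), chr17:80044940-80045022 on the minus strand (Hnrnpll), chr6:86423606-86423671 on the plus strand (Tia1) and chr7:128447039-128447107 on the minus strand (Tial1).
Hnrnpl-213: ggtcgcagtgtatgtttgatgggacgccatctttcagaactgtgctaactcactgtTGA
Hnrnpll-203: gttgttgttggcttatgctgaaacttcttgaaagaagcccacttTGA
Tia1-218: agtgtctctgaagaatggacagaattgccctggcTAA
Tial1-212: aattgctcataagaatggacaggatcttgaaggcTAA

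Transcripts with the 70-base exon held 13.2% and 13.9% of the TPM of Hnrnpl in replicates 1 and 2, and those with the 83-base exon held 13.5% and 11.4% of Hnrnpll, with transcripts of every class counted. In Hnrnpl most of this was the retained-intron transcript Hnrnpl-207 (9.41% and 8.75%), and the decay-targeted Hnrnpl-213 held 3.81% and 5.15%, while in Hnrnpll all of it was the decay-targeted Hnrnpll-203. For the 66-base exon of Tia1 the shares were 6.73% and 7.44%, of which the retained-intron transcript Tia1-207 held 4.86% and 5.29%. The 69-base exon of Tial1 alone held 0% and 0.391%, but a 377-base form with the same 5′ end and the same stop held 8.44% and 6.72%, and transcripts with a nearby 68-base exon, which has a TGA stop, held 16.8% and 12.7%. The Tia1 and Tial1 exons matched at 48 of 71 aligned columns (67.61%), the highest of 111 pairs of extra exons of different members, whose median identity was 47.06%.

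All 39 members were at 1 TPM or more in both replicates, beside 46.7% of nuclear protein-coding genes. At 100 TPM or more in both replicates there were 14 of the 39, beside 1.64% of the nuclear protein-coding genes and 3.51% of the 10284 at 1 TPM or more. The median level of the members was 69.7 TPM ± 0.983 (SD, n = 2), against 11.0 TPM ± 0.332 over those 10284 genes. In bulk RNA such as this, more cells with a transcript and more transcript per cell cannot be told apart. The 39 genes made up 0.177% of nuclear protein-coding genes and held 2.22% ± 0.107 of their TPM. The 5 highest members held 45.7% ± 0.800 of the members' TPM.

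**Figure D1:**
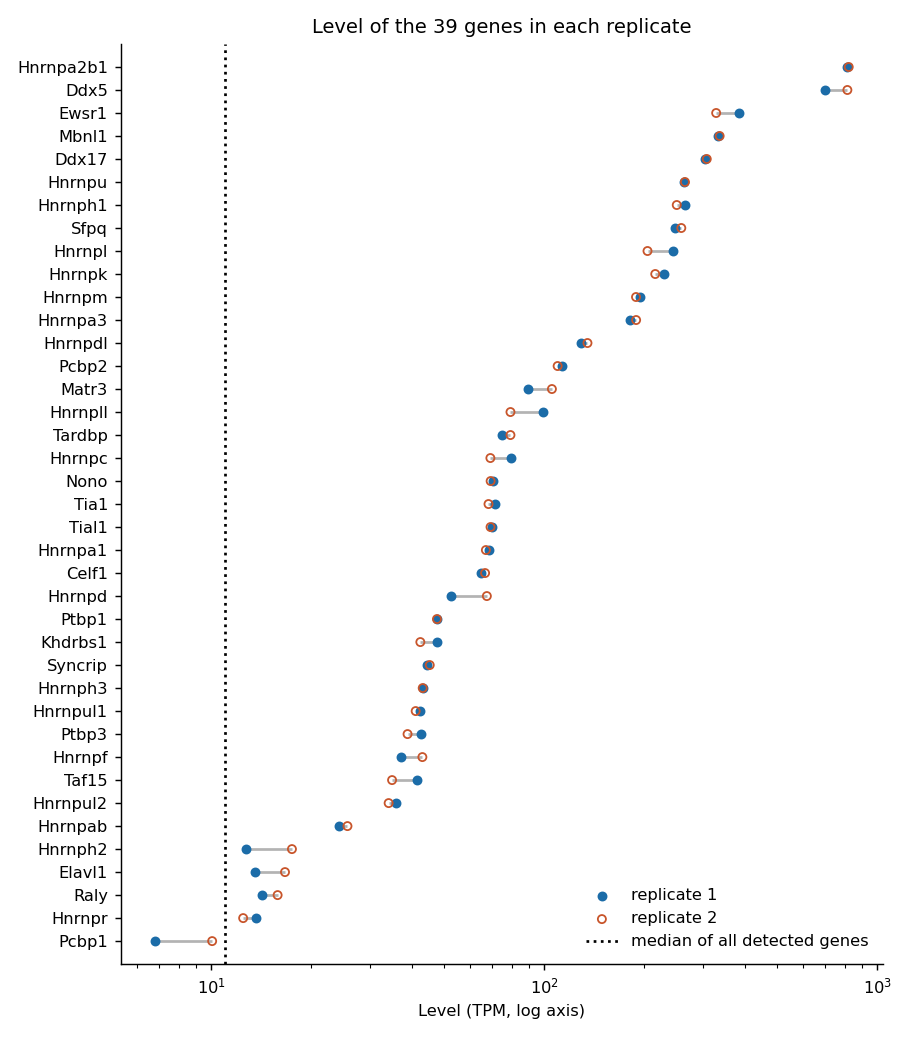
Level of each of the 39 genes in TPM on a log axis, 1 row per gene in order of the mean, with a filled point for replicate 1 and an open point for replicate 2. The dotted line is the median of all genes at 1 TPM or more (11.0 TPM), and Pcbp1 is the member below it in both replicates.

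Hnrnpa2b1, which binds purine-rich RNA and guides its splicing and transport, was the highest member at 814 and 822 TPM. Ddx5, a helicase and transcription cofactor, followed at 699 and 814 TPM. Their means, 818 TPM ± 5.54 and 757 TPM ± 81.5, were closer than the spread of Ddx5. Ewsr1, the FET protein altered in Ewing sarcoma, stood at 384 and 329 TPM. Mbnl1, a regulator of developmental splicing, stood at 332 and 337 TPM, between the replicates of Ewsr1, so the order of the 2 genes differed between replicates. Ddx17, the paralog of Ddx5, stood at 303 and 308 TPM, below both in each replicate.

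Hnrnpu, the scaffold attachment factor, had 263 and 265 TPM, and Hnrnph1, which binds runs of G, had 265 and 250 TPM. Sfpq, a paraspeckle protein, had 247 and 258 TPM. The range of Hnrnph1 overlapped those of both others, while Sfpq was below Hnrnpu in both replicates. These 8 genes were among the 100 nuclear protein-coding genes with the highest TPM, and 24 of the 39 were among the highest 1000.

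At the low end were Pcbp1, a poly(C)-binding protein from a gene without introns, at 6.80 and 10.1 TPM (112 and 248 counts), and Hnrnpr at 13.6 and 12.5 TPM. Raly, an hnRNP C relative, had 14.2 and 15.8 TPM. Elavl1, the AU-rich element binder HuR, had 13.6 and 16.7 TPM, and Hnrnph2 had 12.8 and 17.5 TPM. The ranges of Raly, Elavl1 and Hnrnph2 overlapped, and Pcbp1 was below the others in both replicates.

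Paralogs sat far apart in level. Hnrnph1 was at 258 TPM ± 10.5 and its X-linked relative Hnrnph2 at 15.1 TPM ± 3.34, and Pcbp2 was at 111 TPM ± 2.26 and Pcbp1 at 8.44 TPM ± 2.32. Hnrnpl, a CA-repeat binder, was at 224 TPM ± 27.6 and Hnrnpll, known for CD45 splicing in lymphocytes, at 89.4 TPM ± 14.3. Sfpq was at 253 TPM ± 7.81 and its partner Nono at 69.8 TPM ± 0.898. By contrast Tia1 and Tial1, stress granule proteins that bind U-rich RNA near splice donors, were at 69.6 TPM ± 2.16 and 69.4 TPM ± 0.509. Ptbp1, the polypyrimidine tract binder, was at 47.8 TPM ± 0.0919 and Ptbp3 at 40.8 TPM ± 2.64.

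By family, the 4 A/B genes summed to 1096 TPM ± 10.8 and the 2 DEAD-box genes to 1062 TPM ± 84.9. The paraspeckle and matrix proteins Sfpq, Nono and Matr3 summed to 420 TPM ± 18.3, the L and PTB genes to 402 TPM ± 44.7 and the FET genes to 395 TPM ± 43.7. Hnrnpr and Syncrip, the R and Q proteins, summed to 58.0 TPM ± 0.255.

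Related genes were counted over whole lists. Of 18 SR proteins, CLK kinases and U2AF subunits, partners and counterparts of hnRNP proteins in splicing, 6 were at 100 TPM or more in both replicates, and their median was 71.1 TPM ± 1.11. Of 26 core spliceosome genes 3 were, with a median of 14.3 TPM ± 0.428, and of 26 other DEAD-box and DEAH-box helicases 1 was, with a median of 15.9 TPM ± 0.590. Of 15 decay and exon junction factors 1 was. Of 26 other or tissue-restricted relatives of the members, 8 were at 1 TPM or more in both replicates and 8 had a count of 0 in the gene table. The second transcript table lists 4 of those 8 above 0 in both replicates, among them Khdrbs2 at 7.13 and 9.99 TPM and Nova1 at 2.20 and 3.68 TPM.

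The 39 members have 458 annotated transcripts: 242 coding, 102 with a retained intron, 48 targeted to decay and 66 of the other non-coding class. Summed over members, coding transcripts held 37.4% ± 0.506 of the TPM, retained-intron transcripts 33.8% ± 0.930, decay-targeted transcripts 12.9% ± 0.891 and the other class 15.9% ± 0.467. By expected counts, which are not divided by length, the shares were 50.4% ± 0.337, 22.8% ± 1.37, 18.9% ± 1.18 and 7.90% ± 0.151. Retained-intron transcripts of the members are short, with a median of 812 bases against 1778 for coding ones, so a read on one weighs more in TPM. Ddx17, Hnrnpf, Hnrnpab, Hnrnph2 and Pcbp1 have coding transcripts only, and no split could be read for them.

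**Figure D2:**
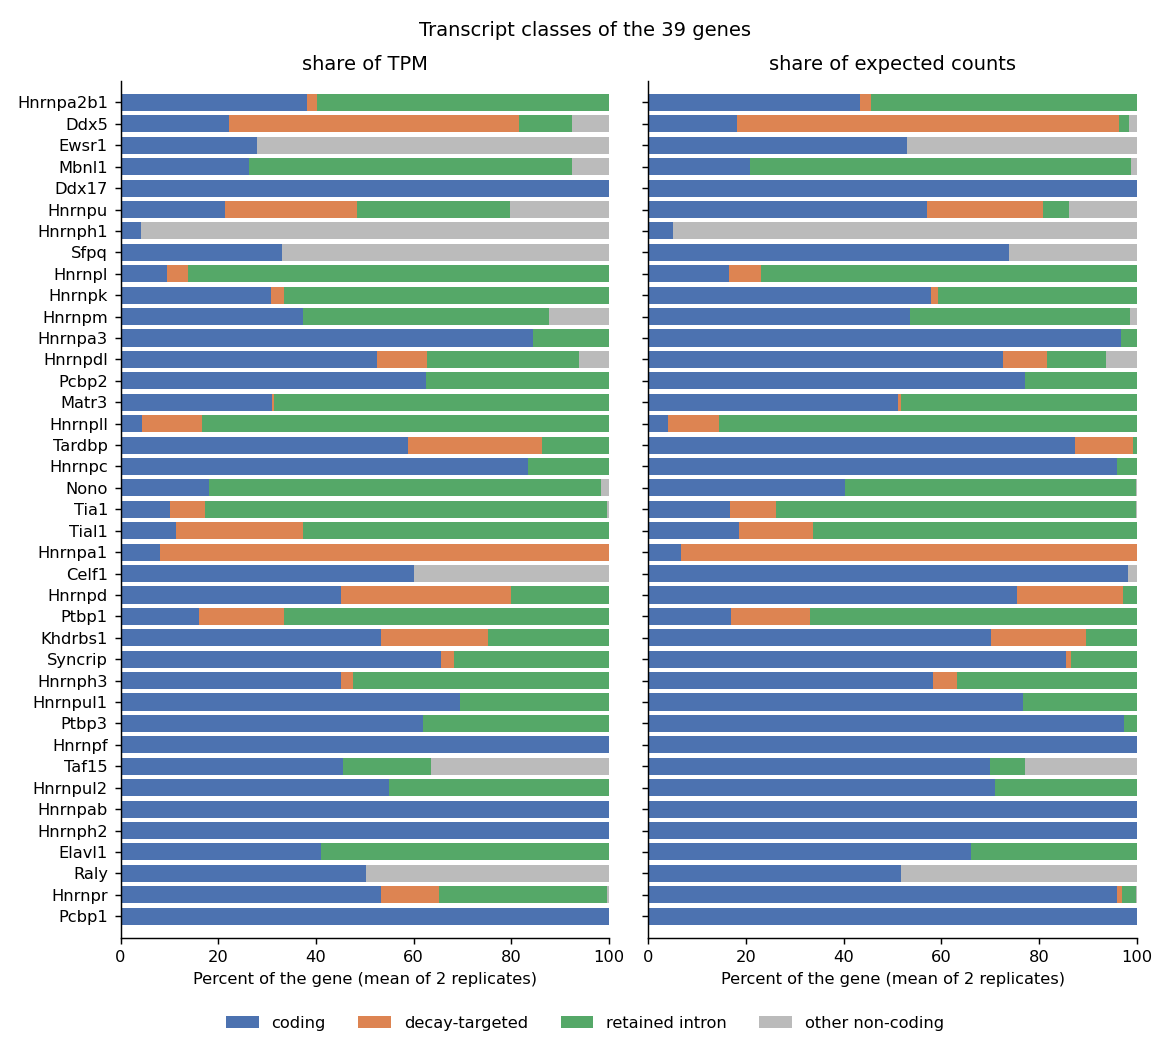
Split of each of the 39 genes over coding, decay-targeted, retained-intron and other non-coding transcripts, as a percent of the gene's TPM (left) and of its expected counts (right), mean of 2 replicates, genes in order of level. Hnrnpl and Hnrnpll are mostly retained intron on both sides, Ddx5 and Hnrnpa1 mostly decay-targeted, and Hnrnph1 mostly other non-coding.

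Of the 28 members with a retained-intron transcript, 13 had at least 50% of their TPM on that class, beside 48.1% of the 5042 nuclear protein-coding genes with such a transcript and 100 counts or more per library. The members' count is near that background. Their median share was 42.4% ± 1.90, against 48.9% ± 0.566 over those genes. By expected counts 8 of the 28 reached 50% (all genes 30.5%), and by the second transcript table it was 9 of the 28 (all genes 44.4%). At a threshold of 40% there were 14 (all genes 64.1%) and at 60% there were 9 (all genes 30.8%). Among the 26 members with at least 500 counts per library 12 reached 50% (all such genes 45.9%).

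Hnrnpl had the highest share, 86.4% and 85.9%, with Hnrnpll at 82.2% and 84.3%. Tia1 had 83.9% and 80.9%, and Nono 81.8% and 78.5%. Matr3, a nuclear matrix protein, had 66.6% and 70.5%, and Hnrnpk, a poly(C) binder, had 66.5% and 66.8%. Ptbp1 had 72.9% and 60.1%, and Mbnl1 had 68.0% and 64.2%. These 8 members were above 60% in both replicates.

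In the upper 4 the class was spread over several transcripts. Hnrnpl-206, whose border is printed above, held 29.0% of Hnrnpl, and Hnrnpll-207 held 28.7% of Hnrnpll. Tia1-213 held 19.4% of Tia1, and Nono-205 held 28.3% of Nono.

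The lowest shares were those of Ddx5 at 10.6% and 10.9%, Tardbp, the TDP-43 gene, at 13.2% and 14.3%, and Hnrnpa3 at 15.8% and 15.4%. Hnrnpc, which binds U tracts, had 16.6% ± 2.15 (mean and SD), and Taf15 had 16.4% and 19.6%. These 5 members were all under 20% in both replicates by this label. A structure measure counted transcripts outside the coding class with at least 50 bases in introns, and in no exon, of coding transcripts. By it Ddx5 had 77.2% and 78.5% and Taf15 had 52.5% and 56.5%, while Hnrnpa3 and Hnrnpc stayed under 20%. Tardbp had 0%, because none of its transcripts met this rule. By counts Tardbp had 0.891% and 0.779% on its retained-intron transcript Tardbp-225, which is 370 bases long.

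**Figure D3:**
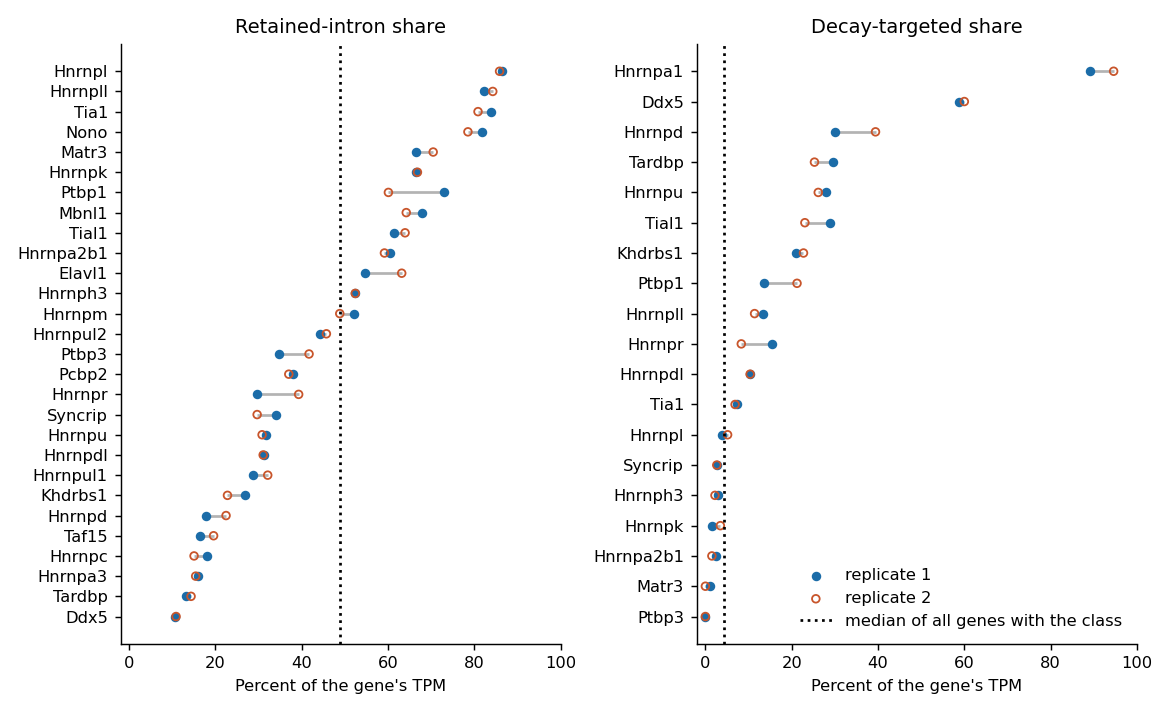
Retained-intron share of the 28 members with such a transcript (left) and decay-targeted share of the 19 members with one (right), as a percent of the gene's TPM, with a filled point for replicate 1 and an open point for replicate 2. Dotted lines are the medians over all genes with the class, 48.9% and 4.22%: 13 members lie at 50% or more on the left, and 7 at 20% or more on the right.

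Of the 19 members with a decay-targeted transcript, 7 had at least 20% of their TPM there, beside 15.7% of 2539 genes. The median was 11.9% ± 2.19, against 4.22% ± 0.0103 over those genes. The distance between the medians depends on the values used: it was 13.8% against 9.40% in the second transcript table, 11.9% against 6.57% by the posterior mean TPM and 9.44% against 2.06% by expected counts. In the related lists, the median of the mean shares was 15.8% for 7 other helicases and 20.15% for 4 other or tissue-restricted relatives. It was 4.82% for 17 SR, CLK and U2AF genes, 3.80% for 8 core spliceosome genes and 2.6% for 3 decay and exon junction factors. A median above that of all genes was thus not particular to the members. Hnrnpa1, a splicing repressor and shuttling protein, had 89.1% and 94.6%. Ddx5 had 59.4% ± 0.842. Hnrnpd, the AU-rich binder AUF1, had 30.1% and 39.4%.

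Tardbp had 29.6% and 25.3%, Hnrnpu 27.9% and 26.2%, and Tial1 28.9% and 23.1%. Those 3 ranges overlapped. Khdrbs1, the STAR protein Sam68, followed at 21.9% ± 1.20. By expected counts Tardbp had 11.8% ± 2.84, Tial1 15.3% ± 3.20 and Khdrbs1 19.4% ± 0.615, all under 20% by the mean. Hnrnpa1, Ddx5, Hnrnpd and Hnrnpu stayed above 20% by the mean of their counts. The share of all genes at 20% by counts was not computed.

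All 48 decay-targeted transcripts of the members have a stop codon more than 50 bases before the last exon junction, the usual distance rule for this label. In 18 of them, from 7 members, the stop is the one that a coding transcript of the gene also uses, and exon junctions follow it. Both decay transcripts of Hnrnpa1 are of this kind: Hnrnpa1-203 held 46.3% and 55.6% and Hnrnpa1-204 held 42.8% and 39.1% of the gene. The same holds for Khdrbs1-202, with 21.9% ± 1.20, and for 3 transcripts of Hnrnpd that sum to 17.8% and 31.8%. In Tardbp the share was 13.4% ± 1.54 on transcripts with a shared stop and 13.98% ± 1.49 on those with another stop. Tardbp gave 8 of the 18 transcripts, but Tardbp-208 held all of the TPM of these 8. Shared stops were not counted over the decay-targeted transcripts of all genes, so the 18 has no background.

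Ddx5 differs in that its stop is not shared. Ddx5-208 held 59.4% ± 0.842 of the TPM and 78.5% and 78.1% of the counts of Ddx5, keeps an intron of 1265 bases whole, and meets its TAG stop after the first 2 intron bases, as the capitals of its border above show. The coding transcript Ddx5-201 held 11.4% and 12.6%. All of its paralog Ddx17 fell on 4 coding transcripts, the only class annotated for it.

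The other non-coding class held most of the TPM of 3 abundant members: 95.3% and 96.4% of Hnrnph1, 73.3% and 70.9% of Ewsr1, and 65.8% and 68.0% of Sfpq. By expected counts the class held 94.2% and 95.7% of Hnrnph1, but 48.4% and 45.9% of Ewsr1 and 25.1% and 27.3% of Sfpq. None of the 3 has a transcript labelled as retained intron. By the structure measure, Hnrnph1 had 69.6% and 75.3%, Ewsr1 72.9% and 70.9%, and Sfpq 59.3% and 52.3%. By this measure, chosen after values were seen, 19 of 34 members with a non-coding transcript reached 50%, beside 50.3% of 6358 genes. Raly-210, also of the other class, held 44.0% and 51.4% of Raly.

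The transcript with the largest share was not a coding one in 22 of the 34 members with any other class, beside 46.6% of 6358 genes. A retained-intron transcript led in 14 members, a decay-targeted one in 4 and one of the other class in 4. Coding transcripts led in 17, the 5 members with no other class included. The split by leading class was not counted over all genes, so it has no background. A coding share under 50% was found in 21 of 39 members, beside 49.4% of 7267 genes.

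None of the 39 members was 2-fold or more apart between replicates on scaled expected counts, beside 0.231% of 9080 genes with a mean of at least 50. The median log2 ratio of replicate 2 over replicate 1 was 0.08 for the members and 0.02 for those genes. The largest were Pcbp1 at 0.64, Tardbp at 0.43 and Hnrnph2 at 0.40, and the smallest were Hnrnpll at -0.25, Hnrnpl at -0.12 and Ptbp1 at -0.12. Tardbp had 1917 and 2584 scaled counts but lay closer by TPM, at 74.7 and 79.3. The replicates also differ in RNA input, whose part in these ratios was not tested.

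The second transcript table, made from the same reads in another way, was 2-fold or more from the gene table in both replicates for 2 of 39 members, beside 3.81% of 7267 genes, and for the same count after both tables were rescaled over nuclear protein-coding genes, a step added after values were seen (all genes 3.74%). The replicates lay further apart in the second table, where the members' median was 57.3 TPM in replicate 1 and 89.2 TPM in replicate 2. This was not particular to the members. The median ratio of the second table to the gene table was 0.812 and 1.24 for them and 0.874 and 1.38 for the 7267 genes. After rescaling it was 0.843 and 0.820 for the members and 0.907 and 0.916 for those genes. Celf1, a CUG-repeat binder, had 64.7 and 66.5 TPM in the gene table and 150 and 211 TPM in the second. Raly had 14.2 and 15.8 TPM against 32.9 and 49.8 TPM. In both genes a short transcript of the other class took more of the second table: Celf1-211, of 271 bases, went from 7.94% and 13.5% to 50.4% and 50.5%, and Raly-208, of 402 bases, from 4.36% and 0% to 31.8% and 33.8%.

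The retained-intron share differed between the tables, with no overlap of the replicates, for 23 of the 28 members, and was lower in the second table for 16 of them. The same was not counted over all genes, so these counts have no background. The median share of all genes was 48.9% in the first table and 46.4% in the second. That of the members was 42.4% and 40.9%. The 5 members furthest apart are given here. Mbnl1 had 45.9% and 47.7% in the second table, Tial1 44.1% and 45.7%, and Ptbp1 45.0% and 41.6%, all below their shares in the first. Pcbp2 had 37.9% and 37.0% in the first table and 51.7% and 59.3% in the second. Khdrbs1 had 26.9% and 22.8% in the first and 44.0% and 41.1% in the second.

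**Figure D4:**
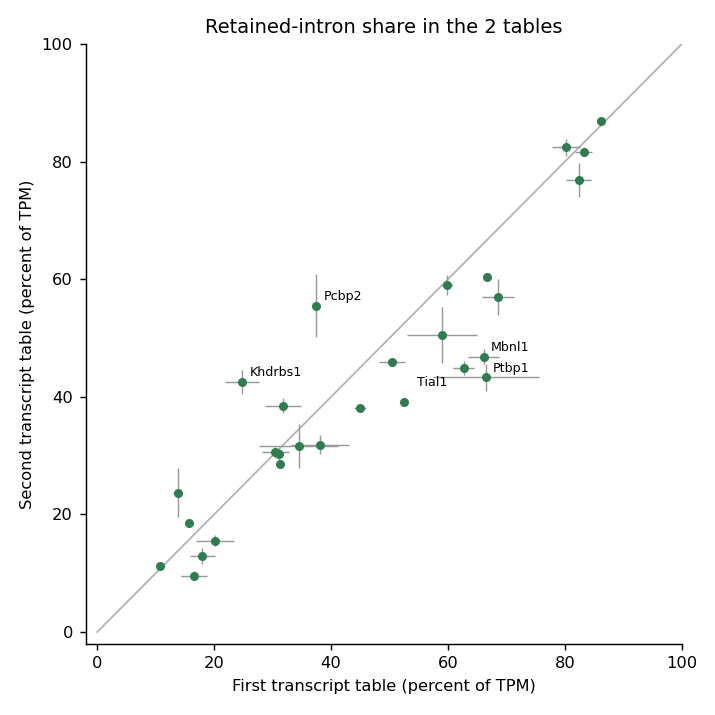
Retained-intron share of the 28 members with such a transcript, as a percent of the gene's TPM, in the first (horizontal) and second (vertical) transcript table, mean with SD bars (n = 2) and the line of equal shares in grey. Members at least 15 percentage points apart are named, and Hnrnpl, Hnrnpll, Tia1 and Nono are high in both tables.

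Several members share sequence or ground with other genes. Pseudogenes with at least 90% identity over at least 300 bases were found for 17 members. The 36 of Hnrnpa3 held 23.4% and 20.7% of the counts of gene and pseudogenes together, the 14 of Hnrnpa1 held 7.79% and 7.71%, and the 2 of Nono held 7.61% and 8.04%, so the values of these 3 genes are uncertain. Another gene overlaps 27 members, on the opposite strand in 18 of them and on the same strand in 13, some of them in both ways. Neither pseudogenes nor overlapping genes were counted over all genes, so the 17, 27, 18 and 13 have no background. Mbnl1 (8450 and 12477 counts) shares 3994 bases on its own strand with Gm37589, which had 2634 and 3254 counts. Pcbp2 (871 and 1284 counts) shares 13184 bases with Gm26518 on the opposite strand, which had 621 and 831. Hnrnpab (479 and 748 counts) shares 4390 bases with Phykpl, which had 855 and 1287 counts. Hnrnph3 (321 and 489 counts) shares 2547 bases with Rufy2, which had 637 and 996. Elavl1 shares 204 bases with Ccl25, and Pcbp1 shares 75 bases with 1600020E01Rik. The labels do not say if the libraries kept strand, and reads of such pairs cannot be told apart where they overlap.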

How the data were processed

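Per the file headers and the notes deposited with them, the authors made a gene table and a first transcript table from an alignment to GENCODE M21 transcripts on mm10, and a second transcript table from an index of the same transcripts. Aligner and counter were not given in the sources used here. Expected counts, as deposited, are estimates and not whole. The deposited TPM values divide them by effective length. The deposited percent per transcript and the deposited interval bounds (a signal value) were not used in a result. A phage control entry held 0.338% and 0.270% of the counts and was left out with 96 spike-in and 26248 numbered entries. The members and lists were chosen with earlier results of these data known. Members were named by fixed ranks of level, class share and replicate ratio and as paralog pairs; other members named were chosen after values were seen. Shares are percents of a gene's summed TPM in the first transcript table. They were set beside those of all nuclear protein-coding genes with 100 counts or more per library. Ratios used counts rounded to whole numbers for TMM scaling in edgeR 4.0.16 (DESeq2 1.42.0 as alternative), with 0.5 added. Sequence matches used blastn 2.17.0, and the rest Python 3.11.15 with pandas 2.3.3. The share and ratio steps were tested on simulated data, which did not cover the assignment of reads to transcripts.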

Additional observations from a re-analysis of the deposited data

How the results depend on the processing

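The median of 69.7 TPM became 65.1 with the posterior mean TPM and 73.2 in the second transcript table. There it was 57.3 in replicate 1 and 89.2 in replicate 2, a 1.56-fold difference, and all genes shifted the same way. The median became 275 when TPM was rescaled over nuclear protein-coding genes, which raises the value of every such gene. On that scale 33 members, not 14, reached 100 TPM, and the share of all genes that did was not counted. By expected counts the median retained-intron share became 26.2%, the decay-targeted share 9.44% and the coding share 69.9%, and 8 members, not 13, reached a retained-intron share of 50%. The median coding share was 40.8% in the second table. The structure measure, added after seeing the data, was set in place of the retained-intron share. It gave a median of 52.3% over 34 members, beside 50.2% over all genes. The median retained-intron share of all genes was 47.5% with at least 500 counts and 47.3% with at least 1 count. Scaling by library totals moved the median log2 ratio of all genes from 0.02 to 0.15 and that of the members from 0.08 to 0.21. Without replicate 1 or 2 the medians of the first tables ranged from 69.0 to 70.4 TPM, from 41.0% to 43.7% retained intron, from 10.4% to 13.5% decay-targeted and from 43.5% to 47.5% coding. No paired analysis was possible because there is only 1 group.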
